A study of Mus musculus with 8 samples.

Results

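The semaphorin signaling genes of adult mouse motor cortex were examined here, that is the semaphorins of classes 3 to 7 (*Sema3* to *Sema7*), the plexins (*Plxna* to *Plxnd*) and the neuropilins (*Nrp1* and *Nrp2*). They were chosen by symbol from the protein-coding genes of the count table. Of 31 such genes in the annotation, 30 had more than 1 CPM (reads scaled to the size of the library) in at least 4 of the 8 libraries and are described as members, out of 16481 genes that passed the same filter. *Sema3b* was left out, with 0.162 to 1.32 CPM and over 1 CPM in 1 library. *Sema3g* passed with 3 control libraries and all 4 *Fezf2 shRNA* libraries, and the other 29 members were over 1 CPM in every library. At P21 to P25, M1 (primary motor cortex) of male Swiss Webster mice received a lentivirus that carries mCherry and, in 4 samples, an shRNA against *Fezf2*, a transcription factor of deep-layer projection neurons. The 4 controls received the same vector with a *non-silencing shRNA*. M1 was dissected at P49 to P53 by its mCherry fluorescence, and total RNA was sequenced. The virus is driven by the *Synapsin I* promoter and is therefore active in neurons, but the dissected tissue held every cell type of the region, transduced or not.

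Semaphorins are ligands that share an extracellular sema domain and are best known for steering and pruning axons during development. Class 3 members are secreted, classes 4 to 6 span the membrane, and *Sema7a* is held on the surface by a lipid anchor. Plexins are their receptors and act on the cytoskeleton through small GTPases, and neuropilins are co-receptors that most class 3 ligands need. In the mature cortex the same genes are known for roles at dendritic spines and synapses, in vessels and in oligodendrocytes.

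The 8 libraries held 54684016 to 58003814 counts, summed over 1 transcript interval per gene. The shRNA target *Fezf2* itself had 686, 775, 733 and 696 normalized counts in control replicates 1 to 4 and 622, 585, 573 and 585 in the *Fezf2 shRNA*-treated samples. The groups did not overlap, and the log2 fold change was -0.29 (SE 0.0774, adjusted p = 0.119 in edgeR). A two-sided exact permutation test gave p = 0.0286, the smallest value that 4 samples against 4 allow. Normalized counts are corrected for the TMM-adjusted size of each library, and a gene was past the threshold when its adjusted p was at most 0.05 and its log2 fold change at least 0.2 in size. The counts cover the whole genomic interval of a transcript with its introns, and in these libraries the fold changes of all genes ran with the length of that interval. Their median was -0.08 for the 10156 genes of up to 30 kb and 0.18 for the 2061 genes over 100 kb. Control replicate 2 had the highest value of all 8 libraries for 11 of the 30 members, and control replicate 4 for 7. The same count was not made over all genes. The record gives 4 of each treatment and does not tie a library to an animal, so that the p-values measure the spread between these 8 samples.

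The sense strand of the 19-nt *Fezf2 shRNA* was compared with the annotated transcripts of the members, because an RNA with a long match could respond to the shRNA itself. The capitals mark the longest run shared with each gene, with the sense strand searched for *Fezf2* and *Plxna1* and the antisense strand for *Plxnc1*.
Fezf2, sense: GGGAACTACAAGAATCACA
Plxna1, sense: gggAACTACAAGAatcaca
Plxnc1, antisense: TGTGATTCTTGtagttccc
*Fezf2* held all 19 nt. Among 31 genes searched, *Sema3b* included, the longest shared run was 7 to 10 nt on the sense strand, the 10 nt in *Plxna1*, and 7 to 11 nt on the antisense strand, the 11 nt in *Plxnc1*. On the sense strand the runs of *Nrp1* (bases 12 to 19) and *Sema6a* (bases 11 to 19) reached its last base, and that of *Plxna1* (bases 4 to 13) did not. Only the longest run of each gene was kept. Whether an RNA with a short match responds to the shRNA was not tested.

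None of the 30 members passed the threshold. In edgeR's quasi-likelihood test, 84 of the 16481 genes passed (0.51%), 79 increased (0.479%) and 5 decreased (0.0303%). The smallest adjusted p among the members was 0.110, for the receptor *Plxna4*. An unadjusted p under 0.05 was reached by 3 members with a higher value in the *Fezf2 shRNA*-treated samples, the plexins *Plxna4*, *Plxna2* and *Plxnc1*, and by 1 with a lower value, the ligand *Sema3c*. These 4 of 30 stand against 15.9% of all genes, which is 9.75% for increases and 6.13% for decreases. The groups did not overlap for *Plxna4* and *Plxna2*, both higher. Among all genes 9.99% had groups without overlap, 6.23% higher and 3.76% lower. The log2 fold changes ran from -0.44 (*Plxnb3*) to 0.31 (*Plxna4*), 12 positive and 18 negative, with a median of -0.03, equal at this rounding to that of all genes tested (-0.03). The 95% confidence interval lay within 0.5 of 0 on the log2 scale for 24 members and within 0.3 for 8, and its widest bound was -0.93 (*Plxnb3*). In tissue of this kind fewer cells of a type and less RNA per cell cannot be told apart.

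**Figure D1:**
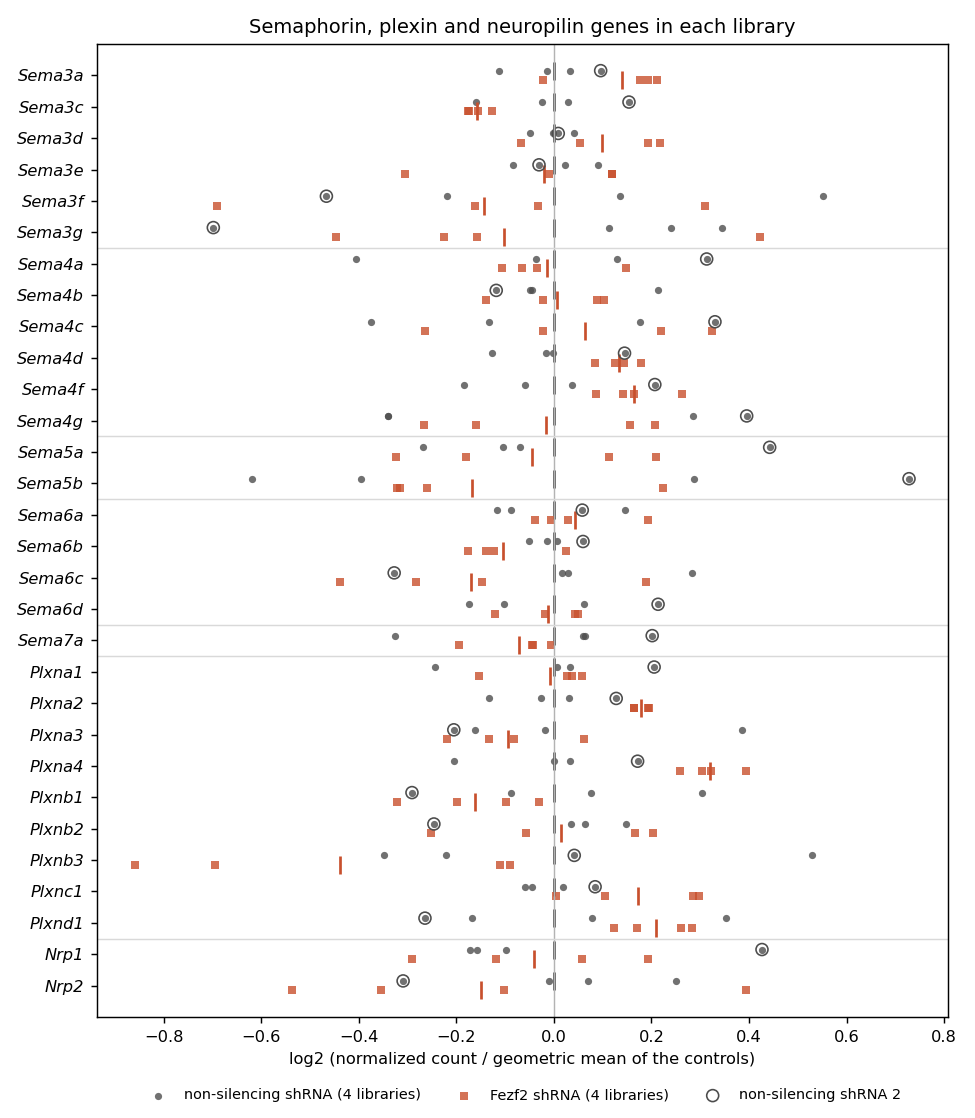
Each row is a gene and each point a library, as log2 of its normalized count over the geometric mean of the 4 controls, with *non-silencing shRNA* in grey circles, *Fezf2 shRNA* in orange squares, the group mean as a vertical tick and control replicate 2 ringed. The orange points lie wholly to the right of the grey ones in 2 of the 30 rows, *Plxna2* and *Plxna4*.

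The levels of the members per kb of counted interval spanned a 92.1-fold range. *Sema7a* was the highest at 4.01 CPM per kb and *Sema6b* the second at 3.60 CPM per kb, followed by the plexins *Plxna1* (1.74), *Plxnb2* (1.59), *Plxnb1* (1.21), *Plxnd1* (1.21) and *Plxna2* (1.00). The lowest were *Nrp2* (0.108), *Sema5b* (0.0831) and *Sema3d* (0.0436 CPM per kb). Of the 29 pairs of neighbours in this order, 27 had overlapping ranges over the 8 libraries. The 2 gaps lay between *Sema6b* and *Plxna1* and between *Sema5b* and *Sema3d*. Since introns are counted, a long gene has a low level per kb on this scale even where its mRNA is abundant, and the exons made up 3.18% (*Plxna4*) to 60.6% (*Sema4g*) of the interval. The coefficient of variation over the 8 libraries was lowest for *Sema6b* (5.88%) and highest for *Sema5b* (34.1%). It was larger among the controls than among the *Fezf2 shRNA*-treated samples for 22 of 30 members, with medians of 13.7% and 8.45%. This was not set against all genes and is not shown to be particular to the members.

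**Figure D2:**
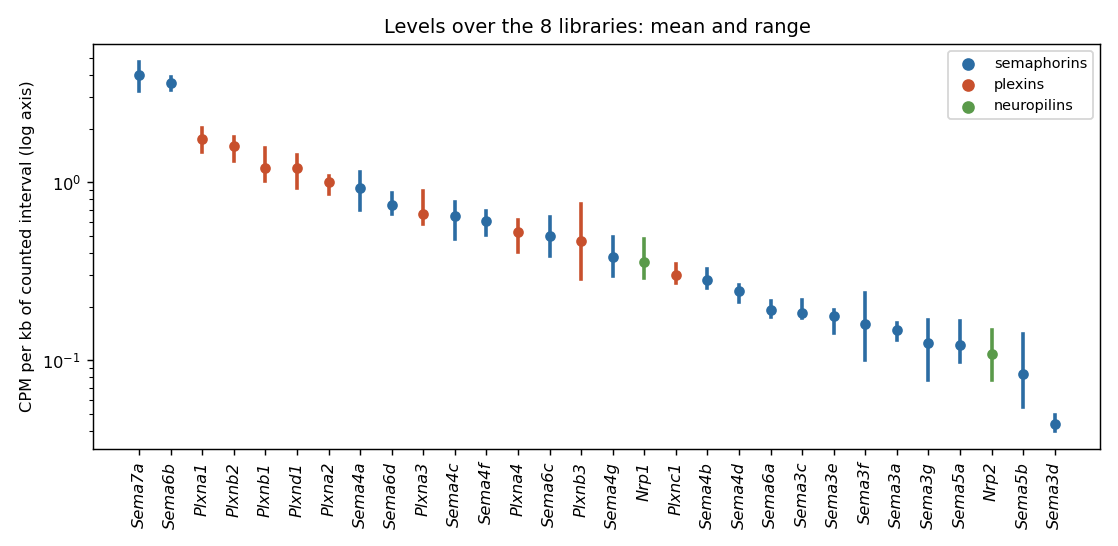
Level of each member in CPM per kb of the counted interval on a log axis, with the mean over 8 libraries as a point and the range as a bar, blue for semaphorins, orange for plexins and green for neuropilins. *Sema7a* and *Sema6b* stand above the plexins, and the class 3 and class 5 ligands fill most of the lower end.

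The secreted class 3 ligands had a median log2 fold change of -0.06 over 6 members, 2 positive and 4 negative. *Sema3c*, which signals through neuropilins and *Plxnd1* and was the highest of its class at 0.185 CPM per kb, lies on chromosome 5 (17574281 to 17730268, plus strand, GRCm38). Its controls had 1680, 1900, 1529 and 1742 normalized counts, and the *Fezf2 shRNA*-treated samples 1512, 1534, 1563 and 1514. The 4 treated samples lay within a narrow band that overlapped the lowest control. The log2 fold change of *Sema3c* was -0.16 (SE 0.0733, unadjusted p = 0.0490 and adjusted p = 0.311 in edgeR), and -0.11 without control replicate 2 (unadjusted p = 0.15 in edgeR). *Sema3a*, the prototype repellent that acts through *Nrp1*, had 1482 to 1713 in the controls and 1578 to 1856 with *Fezf2 shRNA*, a log2 fold change of 0.14 (SE 0.0749). *Sema3e*, which binds *Plxnd1* without a neuropilin, had 2164 to 2441 and 1855 to 2491, with a log2 fold change of -0.01 (SE 0.094). *Sema3f*, the *Nrp2* ligand known for pruning spines of deep-layer neurons, had 191 to 387 and 163 to 327, and a log2 fold change of -0.15 (SE 0.244). Treated samples and controls overlapped for all of these. *Sema3d* (0.10, SE 0.091) and the vessel-associated *Sema3g* (-0.12, SE 0.267) completed the class, the latter at 54.3 to 118 normalized counts.

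The class 4 ligands, which span the membrane, had a median of 0.03 over 6 members, 4 positive and 2 negative. *Sema4a*, the highest of the class per kb at 0.927 CPM per kb, had 999.7, 1274, 774 and 1121 normalized counts in the controls. The *Fezf2 shRNA*-treated samples had 953, 980, 1137 and 1001, inside the range of the controls, and the log2 fold change was -0.03 (SE 0.133, adjusted p = 0.921). *Sema4d*, the ligand of *Plxnb1*, had 1104 to 1333 in the controls and 1279 to 1366 with *Fezf2 shRNA*, a log2 fold change of 0.13 (SE 0.072). *Sema4f* had the highest fold change of the class, 0.16 (SE 0.0907), from 788 to 1034 and 952 to 1075. In both, the treated samples clustered at the upper end of the controls and overlapped them. *Sema4c*, a ligand of *Plxnb2* (0.06, SE 0.174), *Sema4g* (-0.04, SE 0.193) and *Sema4b* (0.00450, SE 0.0979) had differences smaller than their standard errors.

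The class 5 ligands, whose extracellular part carries thrombospondin repeats, were both negative. *Sema5a*, the higher of the pair at 0.122 CPM per kb, had 2942, 4197, 2564 and 2874 normalized counts in the controls and 2727, 2467, 3569 and 3341 in the *Fezf2 shRNA*-treated samples. Control replicate 2 was the highest of all 8 libraries, and the log2 fold change was -0.05 (SE 0.156) with it and 0.12 without it. *Sema5b* had 441, 961, 378 and 708 in the controls and 466, 464, 678 and 484 in the treated samples. It too was highest in control replicate 2, and its log2 fold change of -0.25 (SE 0.26) was 0.04 without that library. Neither negative sign held without control replicate 2.

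The class 6 ligands, transmembrane proteins that bind A-type plexins directly, had a median of -0.06 over 4 members. *Sema6b*, the highest of the class at 3.60 CPM per kb, had 3484, 3762, 3624 and 3576 normalized counts in the controls and 3671, 3318, 3196 and 3276 with *Fezf2 shRNA*. 3 of the 4 treated samples lay under every control and 1 among them, and the log2 fold change was -0.10 (SE 0.0626, adjusted p = 0.436). *Sema6a*, a ligand of *Plxna2* and *Plxna4*, stood at 0.04 (SE 0.082), *Sema6c* at -0.17 (SE 0.159) and *Sema6d*, a ligand of *Plxna1*, at -0.02 (SE 0.0882). *Sema7a*, the lipid-anchored ligand of *Plxnc1* and of integrins, had 5468, 6015, 4173 and 5455 in the controls and 4569, 5069, 5206 and 5081 in the treated samples. The treated samples fell inside the spread of the controls (log2 fold change -0.08, SE 0.100, adjusted p = 0.719).

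Among the receptors, the 9 plexins had a median log2 fold change of 0.02, with 5 positive and 4 negative. *Plxna4* and *Plxna2*, which take up signals from class 6 ligands and, with a neuropilin, from class 3 ligands, had the most counts of all members. *Plxna4* covers 444 kb of chromosome 6 (32144268 to 32588192, minus strand). It had 11589.9, 13056, 11864 and 10057 normalized counts in the controls and 14489.8, 14310.4, 15223 and 13876 with *Fezf2 shRNA*. Every treated sample lay above every control, and the log2 fold change was 0.31 (SE 0.0819, adjusted p = 0.110 in edgeR, and p = 0.0286 in the exact permutation test). Any gene whose groups do not overlap gets this permutation p, *Plxna2* included, and 9.99% of all genes had such groups. DESeq2 placed *Plxna4* past the threshold without its prior (0.32, adjusted p = 0.00638) and with it (0.29, adjusted p = 0.00646), as it did 4.57% and 4.5% of all genes, and edgeR did so without control replicate 2 (0.37), with 1.37% of all genes. That 0.37 was the highest value in edgeR when 1 library was left out, and the lowest was 0.25, without control replicate 4. Antisense genes (*Plxna4os1* to *Plxna4os3*) overlap 4.70% of the interval, and the counting is not stated to use strand.

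*Plxna2* spans 197 kb of chromosome 1 (194619825 to 194816869, plus strand). The controls had 10649, 11382, 10224 and 9506 normalized counts and the treated samples 11919, 11679.8, 11669 and 11902. The 4 treated samples were tightly placed above the controls, with a log2 fold change of 0.18 (SE 0.068, adjusted p = 0.250; exact permutation test, p = 0.0286). *Plxnc1*, the receptor of *Sema7a*, lies on chromosome 10 (94790866 to 94944835, minus strand). It had 2484, 2598, 2374 and 2353 in the controls and 2459, 3012, 2985 and 2633 in the treated samples. 3 treated samples were above all controls and replicate 1 was among them, and the log2 fold change was 0.18 (SE 0.078, adjusted p = 0.30).

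**Figure D3:**
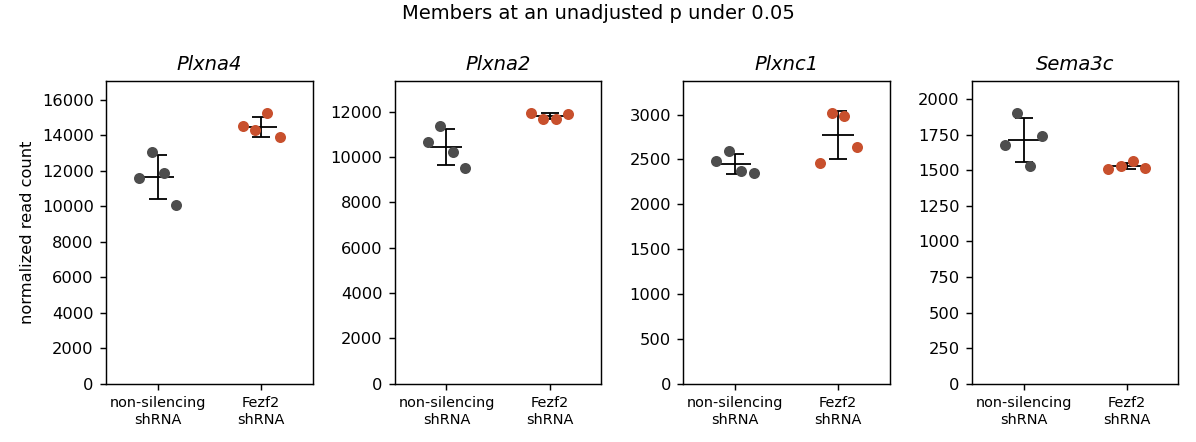
Normalized read counts in each library of the 4 members at an unadjusted p under 0.05, with the mean and SD of each group of 4, *non-silencing shRNA* in grey and *Fezf2 shRNA* in orange, and each axis starting at 0. The groups are apart for *Plxna4* and *Plxna2* and overlap for *Plxnc1* and *Sema3c*.

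*Plxna1* was the highest plexin per kb (1.74 CPM per kb), with 3800.4, 4366, 3198 and 3872 normalized counts in the controls and 3940.3, 3882, 3857 and 3405 with *Fezf2 shRNA*. The treated samples lay within the range of the controls (log2 fold change -0.01, SE 0.0913). Other genes, among them the antisense gene *Gm26811*, overlap 25.9% of this interval, so that part of these counts may be theirs. *Plxna3*, a receptor for *Sema3f* signals, stood at -0.11 (SE 0.132). Among the B-type plexins, which bind class 4 ligands, *Plxnb1* was at -0.18 (SE 0.117) and *Plxnb2* at 0.02 (SE 0.114), both with overlapping groups. *Plxnd1*, the *Sema3e* receptor, had 2087 to 3203 in the controls and 2729 to 3052 in the treated samples. The log2 fold change of *Plxnd1* was 0.19 (SE 0.119), and it ran from 0.11 without control replicate 2, its lowest library, to 0.32 without control replicate 4, its highest.

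*Plxnb3*, a plexin known from the oligodendrocyte lineage, had the lowest fold change of the members. It had 387, 464, 354 and 651 normalized counts in the controls and 249, 278, 424 and 418 in the treated samples, a log2 fold change of -0.44 (SE 0.222, adjusted p = 0.354). Control replicate 4 was the highest, *Fezf2 shRNA* replicates 1 and 2 were the lowest, and the groups overlapped. The summed level of 7 oligodendrocyte markers, *Mbp* and *Mog* among them, was 652, 989, 831 and 1248 CPM in the controls and 556, 549, 889 and 877 CPM in the treated samples. There too control replicate 4 was the highest library and *Fezf2 shRNA* replicates 1 and 2 the lowest. All 7 markers had a negative log2 fold change, where 9172 of all 16481 genes tested did. 4 of the 7 were at an unadjusted p under 0.05 in edgeR, beside 6.13% of all genes with a decrease. The summed level of these oligodendrocyte markers gave p = 0.2 in an exact permutation test. The part of these cells in the *Plxnb3* values was not tested. Without control replicate 4 the log2 fold change of *Plxnb3* was -0.23.

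The neuropilins were both negative, with overlapping groups. *Nrp1*, also a co-receptor for VEGF in vessels and the higher of the pair at 0.354 CPM per kb, had 2550.3, 3861, 2576 and 2684 normalized counts in the controls and 2645, 2346, 3284 and 2989 in the treated samples. Control replicate 2 alone stood far above the other controls, and the log2 fold change of -0.05 (SE 0.143) was 0.11 without it. *Nrp2* had 473 to 696 and 404 to 769.9, with a log2 fold change of -0.12 (SE 0.188).

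The members' fold changes were set beside the length of the counted interval. The 13 members of up to 30 kb had a median of -0.10, where all genes of that length had -0.08. The 6 members of 30 to 100 kb had -0.00495 and the 4264 genes of that length 0.02. The 11 members over 100 kb had a median of 0.04, against 0.18 for all 2061 genes over 100 kb. Among these 11, *Plxna2* and *Plxnc1* (both 0.18) lay at the median of long genes and *Plxna4* (0.31) above it. The other 8, all ligands except *Nrp1*, lay under it, from -0.25 (*Sema5b*) to 0.14 (*Sema3a*). These medians describe the members and were not tested against other genes.

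**Figure D4:**
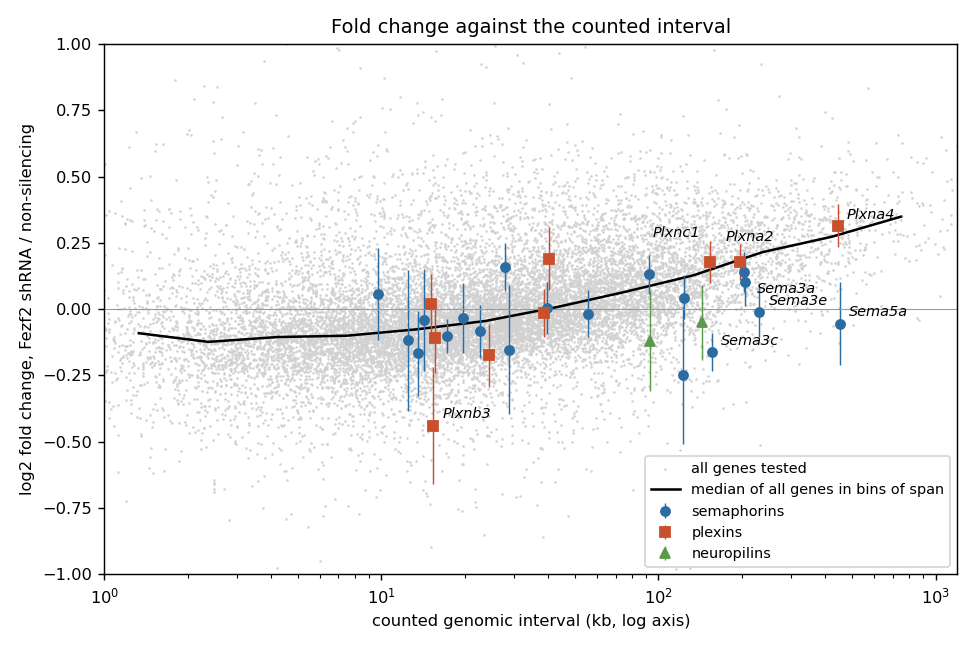
Log2 fold change, *Fezf2 shRNA* over *non-silencing shRNA*, against the counted interval in kb on a log axis, for all genes tested (grey) and for the members with their SE as bars. The black line is the median of all genes in bins of interval length, 1037 genes outside the axes are not drawn, and *Plxna4*, *Plxna2* and *Plxnc1* lie close to the line while the other members over 100 kb lie under it.

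When the trend of counts with interval length was taken out of each library, the 3 plexins had log2 fold changes of 0.04 (*Plxna4*), -0.01 (*Plxna2*) and 0.02 (*Plxnc1*). *Sema3c* went to -0.32 (unadjusted p = 0.00101, adjusted p = 0.228 in edgeR), *Sema3e* to -0.22 (unadjusted p = 0.0180 in edgeR) and *Sema5a* to -0.33 (unadjusted p = 0.0407 in edgeR). In that fit 3 of 30 members were at an unadjusted p under 0.05, all negative, where 10% of all genes were and 4.67% with a decrease, and none passed the threshold.

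Transcripts that differ in extent made it possible to separate pieces of some members into exonic parts (at least 80% exonic bases) and intronic parts (at most 5%). There were 8 intronic and 4 exonic parts with a mean of at least 100 reads, and none of the 12 passed the threshold, which 10.2% of 2651 intronic and 0.549% of 2368 exonic parts of all genes did. The median log2 fold change was 0.24 over the 8 intronic parts, 6 of them positive, and -0.16 over the 4 exonic parts. Over all genes these medians were 0.19 and -0.08. An unadjusted p under 0.05 was reached by 4 of the 8 intronic parts, all with higher values (*Sema3a*, *Plxnc1*, *Sema6d* and *Plxna2*), where 33.2% of all intronic parts were and 31.9% with an increase. None of the 4 exonic parts was, against 8.11% of all. The intronic part of *Sema3a* had 198, 224, 164 and 240.1 normalized counts in the controls and 294, 236, 298 and 309.7 in the treated samples. 1 treated sample fell among the controls and the other 3 above them (log2 fold change 0.46, SE 0.15, adjusted p = 0.0860). In *Plxna2* an intronic part had 1067, 989, 1022 and 1055 in the controls and 1235, 1183, 1099 and 1459.9 in the treated samples. The log2 fold change of this part was 0.27 (SE 0.0986, adjusted p = 0.130 in edgeR). It was counted in the same gene and libraries as the values of the whole gene and is no independent observation. The intronic part of *Plxnc1* stood at 0.44 (SE 0.160), that of *Sema6a* at 0.20 (SE 0.129), that of *Sema4d* at 0.19 (SE 0.173), that of *Sema3c* at -0.03 (SE 0.0921) and that of *Sema5b* at -0.21 (SE 0.237).

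*Sema6d* gave both kinds of part. Its lowest-numbered transcript, used for the values above, covers 55.7 kb of chromosome 2 (124610296 to 124665957, plus strand), and its widest 577801 bases. The 520327 bases that a wider transcript adds, 0.327% of them exonic, had 4423, 5999.5, 4532 and 4368 normalized counts in the controls and 5631, 5688, 5665 and 6565 in the treated samples. All treated samples exceeded controls 1, 3 and 4, and control replicate 2 lay among them (0.29, SE 0.113, adjusted p = 0.161). Without that library the part was past the threshold (0.41, adjusted p = 0.0206), as were 13.5% of all intronic parts. An exonic part of 2117 bases had 658, 721, 624 and 831 in the controls and 612, 713, 601 and 574 in the treated samples, a log2 fold change of -0.18 (SE 0.112). The log2 fold change of *Sema6d* was -0.02 for the shorter interval and 0.16 for the widest (unadjusted p = 0.846 and 0.103 in edgeR), so that neither sign was set. All intronic parts had a median of 0.19.

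**Figure D5:**
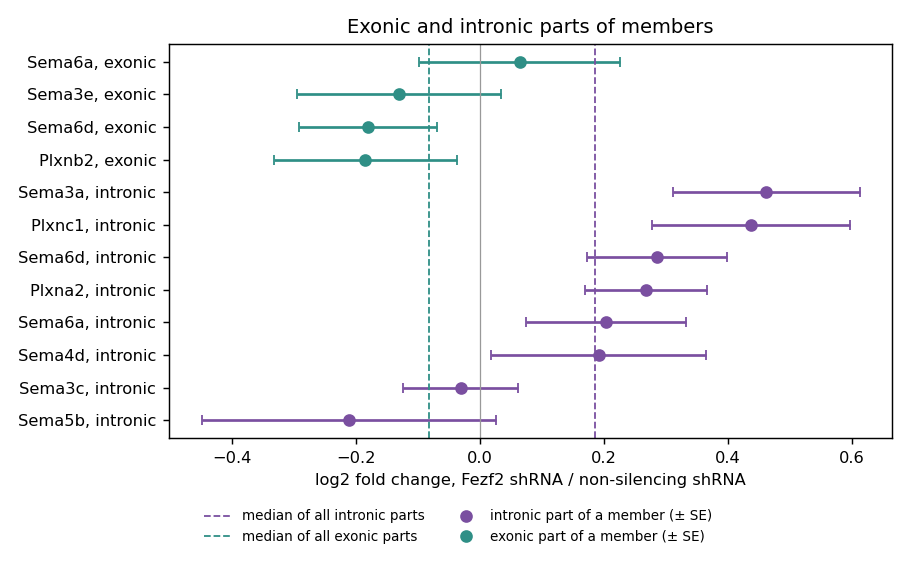
Log2 fold change with its SE of 8 intronic (purple) and 4 exonic (teal) parts of members, and the medians of all such parts as dashed lines, 0.19 and -0.08. Of the intronic parts 6 lie above 0, those of *Sema3c* and *Sema5b* do not, and 1 of the 4 exonic parts does.

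Promoter windows of RefSeq (GRCm38.p6, 250 bases before to 50 after a start) were found for 26 of the 31 genes, 37 windows in all. Those of *Plxna4*, *Plxna1*, *Sema3b*, *Sema3f* and *Sema6a* were not matched. The windows of the other 3 members at an unadjusted p under 0.05 and both windows of *Sema6d* are shown 5′ to 3′ with GC boxes (GGGCGG, or CCGCCC on the other strand) in capitals. Neither window of *Sema6d* lies at the start of its shorter interval (124610296).
Plxna2, chr1:194619579-194619878, plus strand: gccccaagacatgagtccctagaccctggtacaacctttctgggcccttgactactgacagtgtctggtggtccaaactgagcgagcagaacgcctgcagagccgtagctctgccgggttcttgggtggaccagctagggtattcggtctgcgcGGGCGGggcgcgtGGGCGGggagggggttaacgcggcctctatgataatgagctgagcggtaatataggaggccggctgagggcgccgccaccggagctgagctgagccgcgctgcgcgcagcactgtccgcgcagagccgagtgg
Plxnc1, chr10:94944796-94945095, minus strand: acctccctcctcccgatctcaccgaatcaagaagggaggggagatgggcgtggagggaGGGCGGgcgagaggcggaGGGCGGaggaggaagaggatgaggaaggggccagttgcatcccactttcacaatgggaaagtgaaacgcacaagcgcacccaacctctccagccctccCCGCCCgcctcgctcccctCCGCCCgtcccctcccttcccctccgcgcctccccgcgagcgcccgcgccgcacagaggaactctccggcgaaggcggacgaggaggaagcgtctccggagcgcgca
Sema3c, chr5:17574566-17574865, plus strand: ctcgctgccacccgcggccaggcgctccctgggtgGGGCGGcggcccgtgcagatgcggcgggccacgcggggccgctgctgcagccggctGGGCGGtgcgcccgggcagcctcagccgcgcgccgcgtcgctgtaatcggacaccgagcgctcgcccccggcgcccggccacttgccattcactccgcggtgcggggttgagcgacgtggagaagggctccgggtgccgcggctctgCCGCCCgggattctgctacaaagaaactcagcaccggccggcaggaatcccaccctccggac
Sema6d, start of the widest transcript, chr2:124089719-124090018, plus strand: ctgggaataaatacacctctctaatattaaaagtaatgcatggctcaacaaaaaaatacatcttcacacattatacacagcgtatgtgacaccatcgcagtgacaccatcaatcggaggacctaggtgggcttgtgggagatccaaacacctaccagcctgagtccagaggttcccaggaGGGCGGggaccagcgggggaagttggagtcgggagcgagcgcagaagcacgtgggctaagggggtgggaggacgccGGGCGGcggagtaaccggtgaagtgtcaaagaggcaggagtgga
Sema6d, start within the shorter interval, chr2:124653331-124653630, plus strand: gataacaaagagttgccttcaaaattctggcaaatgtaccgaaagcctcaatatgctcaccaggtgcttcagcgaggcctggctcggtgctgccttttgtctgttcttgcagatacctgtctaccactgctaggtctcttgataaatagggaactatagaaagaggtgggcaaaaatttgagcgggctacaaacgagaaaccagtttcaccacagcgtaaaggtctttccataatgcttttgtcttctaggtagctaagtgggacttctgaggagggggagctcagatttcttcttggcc
*Plxna2* held 2 GC boxes, *Plxnc1* 4 and *Sema3c* 3. The distal start of *Sema6d* had 2 and the other none. A GC box was present in 27 of the 37 member windows (73.0%) and in 35.7% of all 32851 windows, and TATAAA on either strand in none of the 37 and in 13.6% of all. The median number of CpG was 15 in the member windows and 7 in all. The 26 genes all passed the CPM filter, while the 32851 windows were not limited to genes that did, and a gene can have several windows. The 2 sets are therefore not alike. These are counts of letters and were not set against expression.

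The wider pathway was followed in 54 genes, 18 co-receptors and binding partners and 36 intracellular effectors, of which 53 were tested (*Rhod* was under the filter). None passed the threshold in edgeR. The unadjusted p was under 0.05 for 4 with a higher and 2 with a lower value, beside the 9.75% and 6.13% of all genes. *Mical3*, of the family of enzymes that oxidize actin below plexins, had 2301, 2580.3, 2227 and 2363 normalized counts in the controls and 2741, 2714, 3125 and 3195 with *Fezf2 shRNA* (log2 fold change 0.31, SE 0.0772, adjusted p = 0.0940). *Fyn*, a kinase in *Sema3a* signaling, had 4002, 4593, 4444 and 4602 in the controls and 5041, 5005, 5354 and 5003 in the treated samples (0.21, SE 0.0624, adjusted p = 0.147). DESeq2 placed both of these past the threshold, as it did 4.57% of all genes without its prior and 4.5% with it. The groups did not overlap for either, but groups without overlap were a condition for naming a pathway gene, *Flt4* aside. Of the 53 genes, 4 had all treated samples above the controls and 1 had all below, beside 6.23% and 3.76% of all genes.

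*Farp1* and *Farp2*, exchange factors that bind A-type plexins, were the other 2 with higher values. *Farp2* had 976 to 1172 in the controls and 1174 to 1325 in the treated samples (0.24, SE 0.0796), and *Farp1* 6659 to 7723 and 7974 to 8479.6 (0.18, SE 0.0635). *Cdk5*, a kinase that acts with *Fyn* below *Sema3a*, had 2047 to 2386 in the controls and 1840.2 to 2031 in the treated samples (-0.20, SE 0.0723), again with no overlap. *Flt4*, a VEGF receptor, was lower at 53.9 to 88.7 and 36.3 to 60.5 (-0.60, SE 0.241), with overlapping groups. The counted intervals were 248 kb (*Farp1*), 196 kb (*Fyn*), 110 kb (*Farp2*), 74.4 kb (*Mical3*), 43.5 kb (*Flt4*) and 5.29 kb (*Cdk5*). All genes over 100 kb had a median log2 fold change of 0.18, and 866 of these 2061 had an increase at an unadjusted p under 0.05 in edgeR. The median was 0.02 for genes of 30 to 100 kb and -0.08 for those of up to 30 kb. The pathway genes were not tested against genes of their length. The median log2 fold change of the pathway was 0.02 over 53 genes, close to 0 in each list, with -0.000646 for the partners and 0.03 for the effectors.

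The tissue label was checked by marker genes. Markers of neurons summed to 4028 to 4568 CPM in the controls and 4082 to 4397 CPM in the treated samples, and those of striatal projection neurons to 52.6 to 60.3 and 42.9 to 62.4 CPM, with *Drd2* and *Adora2a* under the filter. Oligodendrocyte precursor markers summed to 93.3 to 115 CPM and 85.0 to 97.1 CPM (exact permutation test, p = 0.0571), all 5 negative. Endothelial markers, relevant to *Nrp1*, *Plxnd1* and *Sema3g*, summed to 38.0 to 54.6 and 35.0 to 41.8 CPM (exact permutation test, p = 0.2), and 5 of 6 were negative. These counts of negative markers stand beside 9172 negative values among all 16481 genes tested. Astrocyte, microglia and fibroblast markers overlapped between the groups as well, with 1116 to 1285 against 1122 to 1239.7 CPM, 137 to 187 against 132 to 187 CPM and 17.4 to 36.0 against 16.3 to 39.2 CPM (*Lum* under the filter). No list separated the groups, and the part of these cells in the members' values was not tested.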

How the data were processed

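Processed counts of 8 libraries (4 *Fezf2 shRNA*, 4 *non-silencing shRNA*, grouped by the titles) were used. The authors mapped reads to mm10 (GRCm38) with TopHat2 2.1.1 and deposited raw counts per Ensembl transcript, made with BEDTools 2.26.0 multiCov. An outer transcript had at least the count of one nested in it in 99.3% of 119569 pairs, so the intervals include introns. A deposited table of the authors' DESeq2 comparisons, with their base means, fold changes and p-values, was not used.

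Transcripts were matched to GENCODE M21 (91320 of 94647, the rest holding 1.82% of counts), and the lowest-numbered transcript stood for each gene. Genes over 1 CPM in at least 4 libraries were tested with edgeR 4.0.16 (TMM, quasi-likelihood, Benjamini-Hochberg) in R 4.3.3, without covariates. DESeq2 1.42.0 served the alternatives, and limma 3.58.1 was only loaded with edgeR. Python 3.11.15 served the transcript matching, permutation tests, summaries and figures. The offset for interval length was a loess per library (span 0.3). The counts used, summed over 1 transcript interval per gene, were 54684016 to 58003814 per library. Intervals of different genes can overlap, so this sum is not the number of sequenced reads. The replicate spread (biological coefficient of variation 15.3%) sets the precision of most values. The edgeR, replicate block, DESeq2 and length-offset fits were tried on simulated counts. Their replicate spread was smaller than that of these data, and the outcome is not given here.

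Members, pathway and marker lists, and the rule for genes given by library were chosen with earlier results of these data known. That rule took members at an unadjusted p under 0.05 or highest per kb of a class. It also took up to 10 pathway genes past the threshold, or at an unadjusted p under 0.05 with groups that do not overlap. *Flt4* was added after its values were seen, and 1 gene of the marker lists is not reported here. Alternatives were other normalizations, filters, tools and transcripts, the length offset, the replicate number as a block, and leaving out each library.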

Additional observations from a re-analysis of the deposited data

Results flagged for a closer look

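In 5 of the 72 groups of 4 libraries examined (30 members, 5 pathway genes and *Fezf2*, in both treatments), 1 library was far from the other 3 by Dixon's criterion (gap over range above 0.829). Chance flags about 1 in 20 groups, and 4 of the 60 member groups were flagged. *Nrp1* had 3861 normalized counts in control replicate 2, where the other controls had 2550.3 to 2684, and its log2 fold change was 0.11 without that library. *Plxna1* had 3405 in *Fezf2 shRNA* replicate 4, with the others at 3857 to 3940.3. *Sema3a* had 1578 in *Fezf2 shRNA* replicate 2, against 1811 to 1855.5, and a log2 fold change of 0.19 without it. *Sema5b* had 678 in *Fezf2 shRNA* replicate 3, against 464 to 484. *Fyn* had 5354 in *Fezf2 shRNA* replicate 3, against 5003 to 5041.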

How the results depend on the processing

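The count of members past the threshold stayed at 0 under every alternative other than DESeq2 without its prior (1), DESeq2 with its prior (1) and the fit without control replicate 2 (1), where it was *Plxna4* each time. Of 534 member values under alternatives, 531 kept their side of the threshold, and 49 changed sign without being past it on either side. Pathway genes past the threshold were 0 except 2 with DESeq2, with or without the prior (*Mical3* and *Fyn*). Genes past the threshold numbered 84, and 22 with library totals, 208 with a filter of more than 8 CPM, 753 and 742 with DESeq2, 36 with the widest transcript and 2 with the length offset, which takes the trend with length out by construction. The cause of the other differences was not tested. Leaving out 1 library gave 1 (control replicate 1, control replicate 4 or *Fezf2 shRNA* replicate 1) to 224 genes (control replicate 2), with 23 without control replicate 3, 6 without *Fezf2 shRNA* replicate 3 and 4 without *Fezf2 shRNA* replicate 4. It gave 0 to 1 members, 0 pathway genes, and 0 to 1 member parts (*Sema6d*, intronic). The median log2 fold change of the members was lowest, -0.0645, without control replicate 3 and highest, 0.0577, without control replicate 2. *Fezf2* was past the threshold with DESeq2, at -0.28 without and -0.26 with the prior (adjusted p = 0.0402 and 0.0404), ran from -0.31 to -0.25 when a library was left out, and stood at -0.20 with the length offset (adjusted p = 0.453) and at -0.19 with the block and the offset. The members at an unadjusted p under 0.05 numbered 2 to 6 over the alternatives and were not always the same. *Plxna4* was among them in all but the fits with the length offset. *Sema3c* was not with median-of-ratios size factors, without a filter, with DESeq2, with the block alone, or without any 1 library other than control replicate 3.

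The correlation of deviations between samples with the same replicate number was -0.08 to 0.25 over genes, not above 0.1 in every pair, and 2 of 4 controls and 2 of 4 *Fezf2 shRNA* libraries correlated best with their own number. With the replicate number as a block 18 genes and 0 members passed, and 2 genes with the block and the length offset. By that criterion the numbers were not taken to pair the samples. *Plxna4* had a log2 fold change of 0.32 with the block (adjusted p = 0.113 in edgeR).

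Depth was not the limit for most members, while *Sema3g*, at 54.3 to 118 normalized counts, had the widest standard error (0.267). 6 members, *Plxna1* the most, share over 5% of their interval with another gene.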
